A study of Mus musculus with 8 samples.

Results

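The contractile and calcium-handling genes of skeletal muscle were followed through 8 RNA-seq libraries of mouse paw. The set was a named list of 43 gene symbols, and all 43 were found among the 22609 symbols of the count files. All 43 passed the filter on low counts, as did 14790 genes in all. Of the libraries, 4 were labelled male and 4 female, all of the inbred strain C57BL/6J. Every library of either sex carried the label of prolactin (PRL, a pituitary hormone) at 0.1 µg into the sole of the paw, with 1 injection per day for 12 days. The labels name the tissue only as paw, and the PBS and shorter arms of the protocol were not analysed here, so the values have no untreated background. The series is about prolonged prolactin and sex differences in lasting pain, and the comparison its design gives is female against male.

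Skeletal muscle contracts when myosin heads of the thick filament pull on actin of the thin filament within the repeating unit called the sarcomere. Calcium released from the sarcoplasmic reticulum binds troponin on the thin filament and so permits that pull, and the calcium pumps called SERCA return it to the store. Fast and slow fibres build this machinery from different isoforms, so that many of the proteins exist as a fast and a slow version made from separate genes.

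Promoter sequences were matched by symbol to RefSeq entries on mouse build GRCm38.p6, and 34 of the 43 genes had one. The 250 bases before the listed start are shown for the 4 adult myosin heavy chain genes, whose shares are compared between libraries, and for Acta1 (skeletal alpha-actin), the gene with the highest level per length. They run 5′ to 3′ on the strand of the gene. Myh2 (type IIa fibres) lies at chr11:67170777-67171026, Myh1 (type IIx) at chr11:67199852-67200101 and Myh4 (type IIb) at chr11:67237562-67237811, all on the plus strand. Myh7 (slow type I) lies at chr14:54994627-54994876 and Acta1 at chr8:123894776-123895025, both on the minus strand. Capitals mark, in the 3 fast myosin genes, the longest stretch that all 3 share, in Myh7 a match to the MCAT motif on the reverse strand, and in Acta1 matches to CArG, MCAT and TATAAA in that order.
Myh2: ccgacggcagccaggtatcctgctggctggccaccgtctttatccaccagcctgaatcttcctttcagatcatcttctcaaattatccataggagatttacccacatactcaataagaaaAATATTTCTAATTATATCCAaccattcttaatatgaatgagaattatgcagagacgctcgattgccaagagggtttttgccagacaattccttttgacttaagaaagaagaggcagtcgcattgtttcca
Myh1: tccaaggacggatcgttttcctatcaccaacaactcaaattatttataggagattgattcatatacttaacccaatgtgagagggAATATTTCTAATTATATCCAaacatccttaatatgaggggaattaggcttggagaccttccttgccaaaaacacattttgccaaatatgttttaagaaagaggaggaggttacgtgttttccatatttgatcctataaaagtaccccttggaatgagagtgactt
Myh4: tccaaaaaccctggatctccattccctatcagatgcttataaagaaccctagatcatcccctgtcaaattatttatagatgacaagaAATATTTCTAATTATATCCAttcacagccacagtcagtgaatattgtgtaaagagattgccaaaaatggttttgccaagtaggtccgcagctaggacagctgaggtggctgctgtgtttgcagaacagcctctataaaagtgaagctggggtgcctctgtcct
Myh7: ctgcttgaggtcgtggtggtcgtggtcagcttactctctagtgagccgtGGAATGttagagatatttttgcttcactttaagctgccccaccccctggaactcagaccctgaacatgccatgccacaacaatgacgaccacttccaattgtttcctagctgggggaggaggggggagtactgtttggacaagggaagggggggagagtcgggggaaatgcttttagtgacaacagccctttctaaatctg
Acta1: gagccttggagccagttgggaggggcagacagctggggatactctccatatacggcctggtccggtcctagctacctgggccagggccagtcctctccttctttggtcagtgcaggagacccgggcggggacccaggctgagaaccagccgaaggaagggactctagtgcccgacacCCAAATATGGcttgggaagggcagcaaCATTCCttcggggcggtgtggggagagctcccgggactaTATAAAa

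The stretch shared by the fast myosin promoters was 20 bases long and began 130, 165 and 163 bases before the start of Myh2, Myh1 and Myh4. It occurred in 3 of 27025 promoter entries, these 3, and since it was found by comparing them this is a description of their sequence. Motifs were searched on both strands in the same 250 bases. MCAT (CATTCC) was present in 26.5% of the 34 promoters and in 12.6% of all entries. The E-box CANNTG was present in 79.4% against 66.0%, and CAGCTG, which is 1 form of it, in 38.2% against 12.8%. The MEF2 motif was present in 20.6% against 3.01%, CArG in 14.7% against 1.40%, and TATAAA in 14.7% against 12.97%. These matches are letters in a window and were not tested as binding sites.

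The libraries held 16753528 to 24993744 counts in genes, so depth differed far less than muscle content did. The 43 genes took 0.969, 4.88, 1.25 and 0.246% of the counts in male replicates 1 to 4. They took 3.97, 0.628, 0.0887 and 1.21% in female replicates 1 to 4. In female replicate 3, 91.8% of these counts belonged to Atp2a2, Tpm1, Tpm2 and Tpm3, which varied less over the libraries, against 11.2 to 37.6% in the other libraries. The other 39 genes took 0.795, 4.34, 1.06 and 0.153% of the counts in males and 3.5, 0.497, 0.00727 and 1.014% in females. The richest and second richest libraries were thus male replicate 2 and female replicate 1, and female replicate 3 held the least, so that the sexes overlapped. In bulk tissue, fewer muscle cells and less RNA per muscle cell cannot be told apart. Nothing in the labels says that the libraries came from separate animals, so p-values measure the spread between these libraries, which may be technical.

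The genes followed that order almost in unison. Levels are given in CPM (counts scaled to a common library size) with TMM factors. Of the 43 genes, 42 were lowest in female replicate 3 and second lowest in male replicate 4. The highest library was male replicate 2 for 32 genes, female replicate 1 for 10 and another for 1. Among the 37 genes with more than 3 counts in every library, the highest library exceeded the lowest by a median of 624-fold, against 1.57-fold over all genes tested. Without female replicate 3 the median over the 43 genes was 27.8-fold, against 1.52-fold over all genes.

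**Figure D1:**
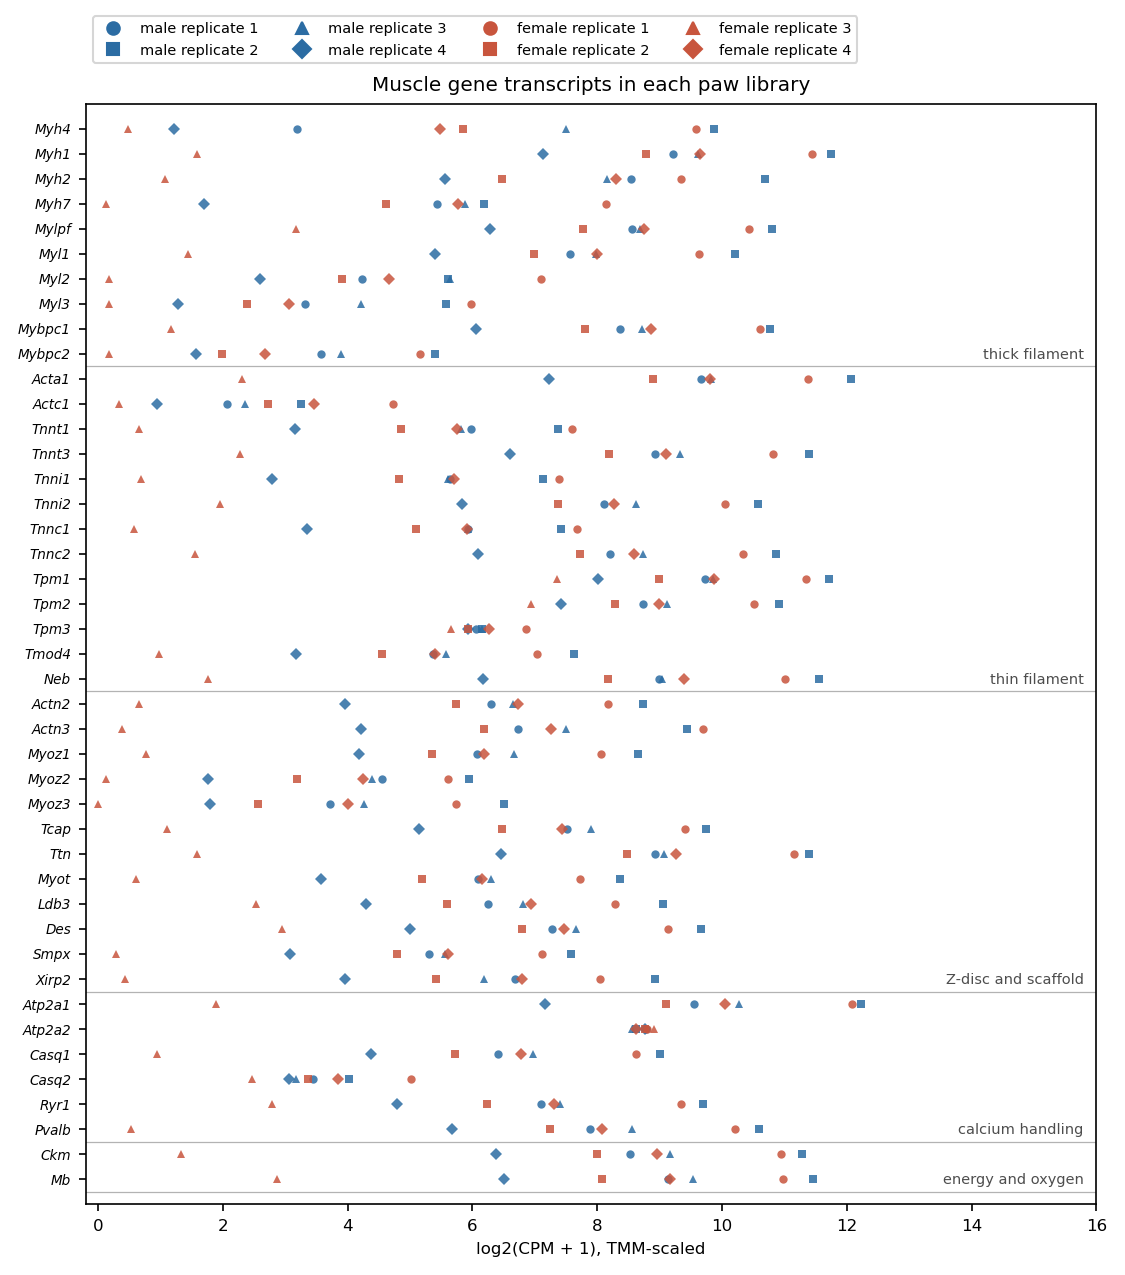
Level of each of the 43 muscle genes in each library, as log2(CPM + 1) on the x axis, with genes grouped by role on the y axis; each point is 1 library. Female replicate 3 lies lowest for 42 genes, while Atp2a2 and Tpm3 stay within a narrow band.

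The marker lists of other cell types moved less. Summed over 6 epidermal markers (led by Krt10, Krt1, Lor and Krt14), the level lay between 32343 and 57070 CPM, and over 6 fibroblast markers (led by Col3a1, Col1a2, Dcn and Col1a1) between 7089 and 16877 CPM. The 8 smooth muscle markers, Acta2, Tagln, Myh11 and Smtn foremost, summed to 373 to 830 CPM, and the 5 adipocyte markers, with Fabp4 and Adipoq foremost, to 70.7 to 214 CPM. Summed tendon markers shared the extreme libraries of the muscle genes. The 6 genes, led by Thbs4, Fmod, Comp and Tnmd, summed to 1342 CPM in female replicate 1 and 1210 in male replicate 2, and to 297 in female replicate 3. Between the extremes the order differed, with 410 CPM in male replicate 3 and 451 in female replicate 2. Of the 6 genes, 3 were lowest in female replicate 3. The 7 listed heart muscle markers, led by Tnnt2, Myl4, Tnni3 and Myh6, summed to 12.4 to 81.4 CPM, with the highest sum in female replicate 1. Nppa, the atrial natriuretic peptide, had 0 counts in every library. Which cells made the other transcripts of this list was not tested. The parts that tissue makeup and dissection play in the muscle levels were not tested.

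**Figure D2:**
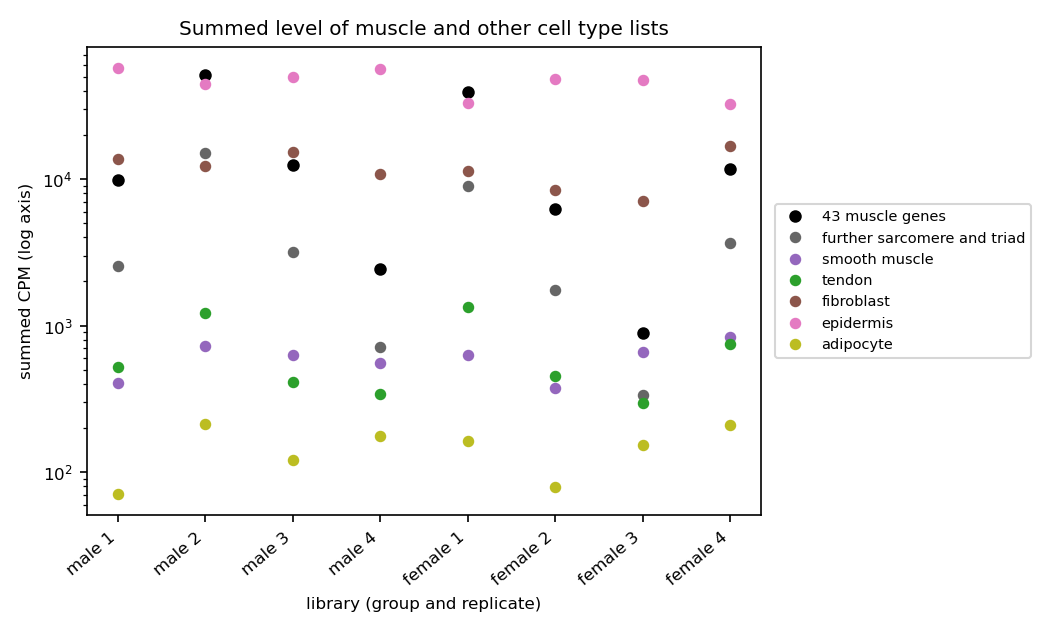
Summed CPM of each gene list on a log axis for the 8 libraries on the x axis; each point is 1 list in 1 library. The muscle lists span a far wider range than the epidermal list, which stays between 32343 and 57070 CPM.

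Of the thick filament genes, the myosin heavy chains are the motors that set the speed of a fibre. Myh4 stood at 8.11, 940, 180 and 1.32 CPM in male replicates 1 to 4 and at 766, 56.5, 0.397 and 43.6 CPM in female replicates 1 to 4. Myh1 stood at 594, 3452, 781 and 139 CPM in males and at 2786, 441, 1.99 and 801 CPM in females. Each sex held high and low libraries, and Myh1 exceeded Myh4 by 73.1-fold in male replicate 1 but by 4.34-fold in male replicate 3. Myh2 stood at 370, 1658, 285 and 46.3 CPM in males and at 649, 88.0, 1.10 and 315 CPM in females. The slow Myh7 stood at 42.0, 71.9, 57.7 and 2.25 CPM in males and at 280, 23.4, 0.0882 and 53.4 CPM in females. The value in female replicate 3 rests on 2 counts. For Myh7 the highest library was female replicate 1, and the ranges of the sexes overlapped for all 4 genes.

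Myl2, the slow regulatory light chain, stood at 17.9, 47.8, 49.1 and 5.04 CPM in males and at 136, 14.0, 0.132 and 24.2 CPM in females. It again peaked in female replicate 1. The fast light chains Mylpf and Myl1 reached 1791 and 1184 CPM in male replicate 2, and the slow essential chain Myl3 reached 61.8 CPM in female replicate 1. Mybpc1, classed here as the slow-type myosin-binding protein C, reached 1736 CPM and the fast-type Mybpc2 only 41.0 CPM, both in male replicate 2. Mybpc1 thus differed from the slow Myh7, Myl2 and Myl3, which were highest in female replicate 1.

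Among the thin filament genes, Acta1 stood at 814, 4279, 902 and 149 CPM in males and at 2652, 474, 3.97 and 899 CPM in females. Actc1, the cardiac alpha-actin that skeletal muscle also makes during development, stood at 3.18, 8.5, 4.09 and 0.930 CPM in males and at 25.6, 5.63, 0.265 and 10.02 CPM in females. Actc1 was thus far below Acta1 throughout, and its highest library was female replicate 1. Acta1 and Actc1 are close copies in their coding parts, and reads placed at more than 1 site do not enter the counts, so the split between them is uncertain.

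Troponin is the calcium switch of the thin filament, made of the tropomyosin-binding subunit T, the inhibitory subunit I and the calcium-binding subunit C. Fast Tnnt3 stood at 484, 2687, 638 and 96.5 CPM in males and at 1808, 289, 3.84 and 546 CPM in females. Slow Tnnt1 stood at 61.7, 164, 55.6 and 7.93 CPM in males and at 192, 28.1, 0.574 and 52.8 CPM in females. In each library the fast gene stood above the slow one, and both were lowest in female replicate 3 and second lowest in male replicate 4. Fast Tnni2 stood at 274, 1530, 391 and 56.2 CPM in males and at 1062, 164, 2.87 and 309 CPM in females. Slow Tnni1 stood at 49.1, 140, 47.7 and 5.92 CPM in males and at 167, 27.4, 0.618 and 51.0 CPM in females. Troponin I thus showed the same order of libraries at its low end. Fast Tnnc2 stood at 295, 1856, 424 and 66.8 CPM in males and at 1290, 210, 1.94 and 382 CPM in females. Slow Tnnc1 stood at 60.0, 171, 60.1 and 9.20 CPM in males and at 203, 33.3, 0.485 and 59.3 CPM in females. In the 3 slow troponin genes female replicate 1 was highest, and in the 3 fast ones male replicate 2.

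Tropomyosin, which lies along actin, behaved less uniformly. Tpm3, a slow-fibre tropomyosin also made by many other cells, stood at 65.7, 70.3, 69.997 and 59.6 CPM in males and at 115, 60.2, 49.2 and 76.2 CPM in females. Tpm1 ranged from 163 to 3351 CPM and Tpm2 from 122 to 1923 CPM. In female replicate 3 the counts were 1115 for Tpm3, 3692 for Tpm1 and 2765 for Tpm2, where Acta1 had 90. Neb (nebulin, the giant protein along the thin filament) and Tmod4 (tropomodulin, which caps it) reached 3022 and 196 CPM in male replicate 2.

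The 12 genes of the Z-disc, the plate that anchors thin filaments, and of the scaffold covered the same range of libraries. Ttn (titin, the giant spring of the sarcomere) stood at 487, 2697, 535 and 86.6 CPM in males and at 2285, 356, 1.99 and 616 CPM in females. In male replicate 2 the other 11 lay between 60.3 CPM (Myoz2, calsarcin 1) and 852 CPM (Tcap, telethonin), with Des (desmin, the intermediate filament of muscle) at 814 CPM. Ldb3 (ZASP) stood at 533 CPM there, Xirp2 (a Xin repeat protein) at 483, Myot (myotilin) at 330 and Smpx (the small muscle protein) at 189. Actn3, the alpha-actinin of fast fibres, was highest in female replicate 1 at 826 CPM. Myoz3 (calsarcin 3) had 0 counts in female replicate 3, which allows up to 3. Together with Myoz2, Myh7, Myl2, Myl3 and Mybpc2 it was 1 of 6 genes at 0 to 3 counts there.

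The calcium-handling genes split in behaviour. Atp2a1, the fast-fibre pump SERCA1, stood at 751, 4810, 1236 and 143 CPM in males and at 4333, 548, 2.69 and 1054 CPM in females. Atp2a2, the pump SERCA2 of slow fibres, heart and most other cells, stood at 440, 391, 376 and 433 CPM in males and at 442, 433, 478 and 395 CPM in females. Atp2a2 spanned 1.27-fold and was the exception whose highest library was female replicate 3. Casq1 and Casq2, the calcium-storing calsequestrins, ranged from 0.927 to 515 CPM and from 4.5 to 31.2 CPM. Ryr1, the channel that releases the calcium, stood at 136, 825, 168 and 26.7 CPM in males and at 648, 74.1, 5.91 and 157 CPM in females. Pvalb (parvalbumin, the calcium buffer of fast fibres) stood at 235, 1546, 377 and 49.8 CPM in males and at 1179, 150, 0.441 and 270 CPM in females. Ryr1 and Pvalb kept the common order of libraries at both ends.

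Ckm, the muscle creatine kinase that regenerates ATP, stood at 366, 2499, 576 and 82.1 CPM in males and at 1971, 254, 1.5 and 498 CPM in females. Mb (myoglobin, the oxygen store) ranged from 6.27 to 2810 CPM. Distance from the common pattern was measured as the SD over libraries of a gene's log2 level minus the median of the 43 genes, without female replicate 3. Casq1 lay closest to the pattern with an SD of 0.07, followed by Ckm with 0.09. Myh4 lay farthest with 1.78, followed by Atp2a2 with 1.66, Tpm3 with 1.42, Casq2 with 1.18, Actc1 with 0.94 and Myh7 with 0.89.

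Per kilobase of exon (GENCODE M21 lengths), the highest mean levels were those of Acta1 (828 CPM per kb), Tnnc2 (707), Mb (593), Mylpf (553), Tnnt3 (517), Atp2a1 (463) and Pvalb (457). The lowest was that of Mybpc2 at 3.84 CPM per kb. In 13 of 14 fast and slow pairs the fast gene was higher per kb. Actn2, made by all fibres, was counted there as the slow partner of Actn3, and Tpm1 as the fast partner of Tpm3. The exception was myosin-binding protein C, with Mybpc1, classed as slow, at 132 CPM per kb. Its SD from the common pattern was 0.18, against 0.38 to 0.41 for the slow troponin genes.

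The makeup of the 4 adult myosin heavy chains was read as shares of their summed counts, with exact Clopper-Pearson 95% intervals that cover counting error only. Myh1 was the most abundant in every library, at 55.6 to 73.5%. Myh4 made up 0.799% (0.681 to 0.931), 15.4% (15.1 to 15.6), 13.8% (13.4 to 14.3) and 0.701% (0.463 to 1.02) in male replicates 1 to 4. It made up 17.1% (16.8 to 17.4), 9.28% (8.79 to 9.79), 11.1% (5.21 to 20.05) and 3.59% (3.39 to 3.81) in female replicates 1 to 4. The type IIb share was thus under 1% in 2 male libraries and 13.8 and 15.4% in the other two, while females lay between 3.59 and 17.1%. The share averaged 10.3 ± 5.56% in females and 7.67 ± 8.01% in males (SD, n = 4 each). Myh2 made up 21.4 ± 8.30% in females and 27.5 ± 6.36% in males, and Myh7 4.24 ± 1.57% and 2.73 ± 1.79%. In female replicate 3 these shares rest on 81 counts. Reads placed at more than 1 site do not enter these counts either, so the split between similar heavy chain genes is uncertain. The shares were not scaled by exon length, which runs from 6.02 kb (Myh4) to 8.62 kb (Myh7).

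**Figure D3:**
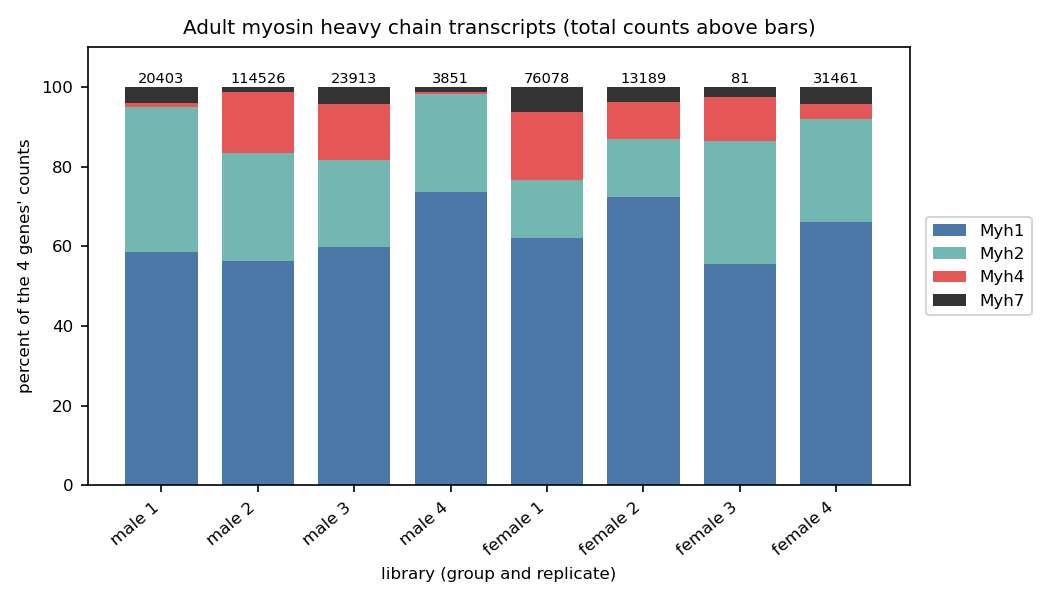
Share of the summed counts of Myh1, Myh2, Myh4 and Myh7 (percent, y axis) in each of the 8 libraries (x axis). Myh1 is the largest share throughout, and Myh4 ranges from 0.701% in male replicate 4 to 17.1% in female replicate 1.

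Isoform ratios within a library do not depend on library size, and 16 were compared between the sexes as log2 of counts with 0.5 added to each. The two-sided exact permutation test over 70 splits can give no p below 0.0286. Adjusted over the 16 ratios, none could fall under 0.05 unless most of them reached that p. No ratio had an unadjusted p under 0.05 and none parted the sexes. The smallest p was 0.114, for Tnni2/Tnni1, and its value adjusted by Benjamini-Hochberg over the 16 ratios was 0.743. Tnni2/Tnni1 was 5.59, 10.9, 8.20 and 9.46 in males and 6.35, 5.97, 4.52 and 6.06 in females, a log2 difference of -0.55 ± 0.24 (SE). Of the 14 fast over slow ratios, 11 were lower on average in females, with a median log2 difference of -0.36. Without female replicate 3 the median was -0.19 and 10 were lower. These ratios share libraries and some share genes, as with Myh7, so the 11 are not independent. Of the slow partners, Atp2a2 and Tpm3 are also made by many other cells, and Actn2 by all fibres. Tpm1, counted as fast, kept 3692 counts in female replicate 3, where Acta1 had 90. Ratios with Atp2a2, Tpm3, Actn2 or Tpm1 therefore do not measure fibre type alone. Casq2 held 102 counts in female replicate 3, where Casq1 held 21.

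Tnnt3/Tnnt1 differed by -0.36 and Tnnc2/Tnnc1 by -0.36 on the log2 scale, while Tpm1/Tpm3 differed by -0.55 and Actn3/Actn2 by -0.15. Myh1/Myh7 differed by -0.86 and Myh2/Myh7 by -1.32, but Myh4/Myh7 by 0.53. Mylpf/Myl2 and Myoz1/Myoz2 differed by 0.13 and 0.01, Myl1/Myl3 by -0.14 and Mybpc2/Mybpc1 by -0.21. Atp2a1/Atp2a2 and Casq1/Casq2 differed by -1.73 and -1.67, and both ratios were lowest in female replicate 3. Without that library they differed by 0.56 and -0.34. Within the fast heavy chains, Myh1/Myh4 differed by -1.40 and Myh2/Myh4 by -1.85. Myh4/Myh7 spanned 67.4-fold over the libraries, from 0.194 in male replicate 1 to 13.1 in male replicate 2. The troponin ratios were far tighter, and without female replicate 3 they spanned 2.08-fold (T), 1.96-fold (I) and 2.21-fold (C).

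**Figure D4:**
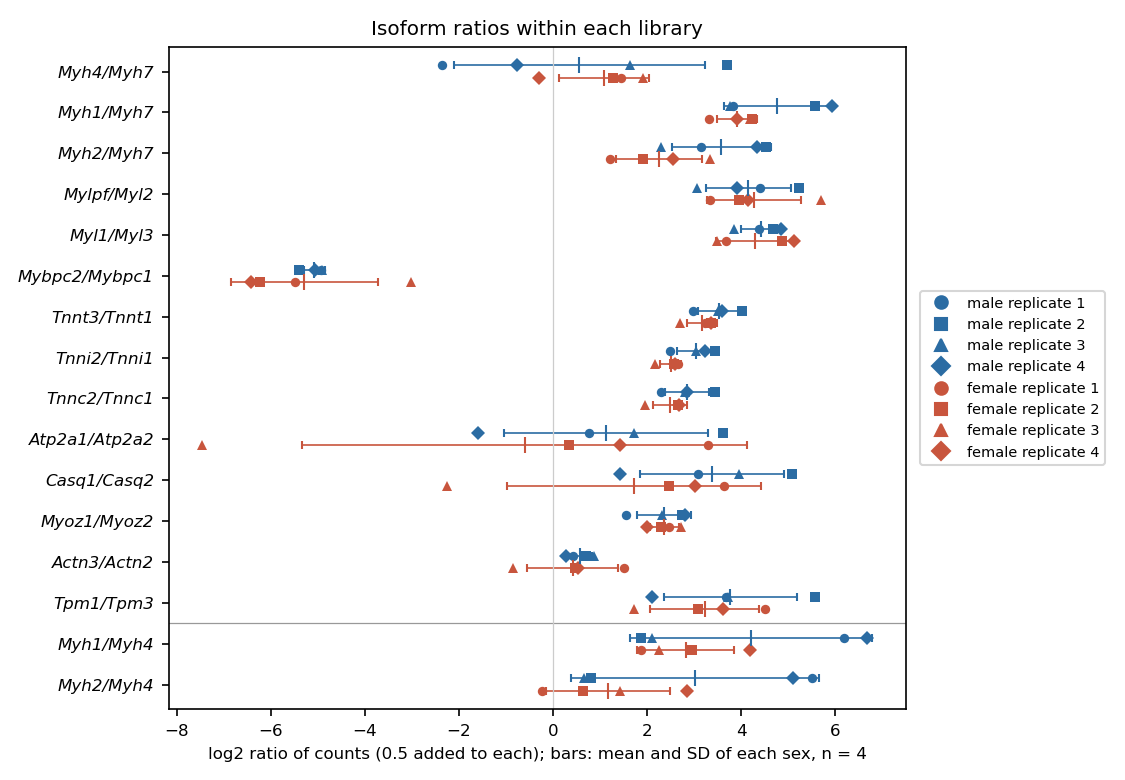
Log2 ratio of counts (x axis) for the 16 isoform pairs (y axis) in each library, with the mean and SD of each sex (n = 4). The sexes overlap in all 16, and the troponin ratios lie in a narrower band than Myh4/Myh7.

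None of the 43 genes differed between females and males by edgeR's quasi-likelihood test, in which 0.0947% of the 14790 genes were called at an adjusted p under 0.05. None was called by DESeq2, which called 0.652% of its genes, or by limma-voom, which called 16 genes in all. None had an unadjusted p under 0.05 in edgeR, against 6.53% of all genes tested. No gene of the 43 parted the sexes without overlap, against 4.73% of all genes tested. The fold change was below 0 for 35 genes and above 0 for 8. Its median was -0.41 on the log2 scale, against 0.01 over all genes, and the median SE was 1.44 against 0.154, so large differences in either direction were not detectable. This sign rested on single libraries: without male replicate 2 the median was 0.78 and 43 genes lay above 0, without female replicate 3 it was -0.02, and without female replicate 1 it was -1.71.

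By fibre type, 1 of 16 fast genes lay above 0 (median -0.48), as did 6 of 11 slow genes (median 0.02) and 1 of 16 genes of both fibre kinds (median -0.47). By role, 2 of 10 thick filament genes lay above 0, 3 of 13 thin filament genes, 1 of 12 Z-disc and scaffold genes, 2 of 6 calcium-handling genes and 0 of 2 for energy and oxygen. The 11 slow genes include Atp2a2 and Tpm3, which many other cells also make. They also include Mybpc1, which was highest in male replicate 2, unlike the slow troponin genes. The 16 fast genes include Tpm1, which kept 3692 counts in female replicate 3, where Acta1 had 90. Whether fast and slow genes differ in this was not tested. The narrowest result was that of Atp2a2, with a log2 fold change of 0.09 ± 0.10 (SE) and a 95% interval of -0.13 to 0.31. Tpm3 followed with 0.18 ± 0.24 (-0.37 to 0.72). Acta1 stood at -0.61 ± 1.5 (-4.11 to 2.89) and Myh4 at -0.38 ± 2.08 (-5.26 to 4.5), intervals that leave several-fold differences either way. Myh2 had the lowest fold change, -1.16 ± 1.52, and Myh7 was at 1.04 ± 1.54.

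**Figure D5:**
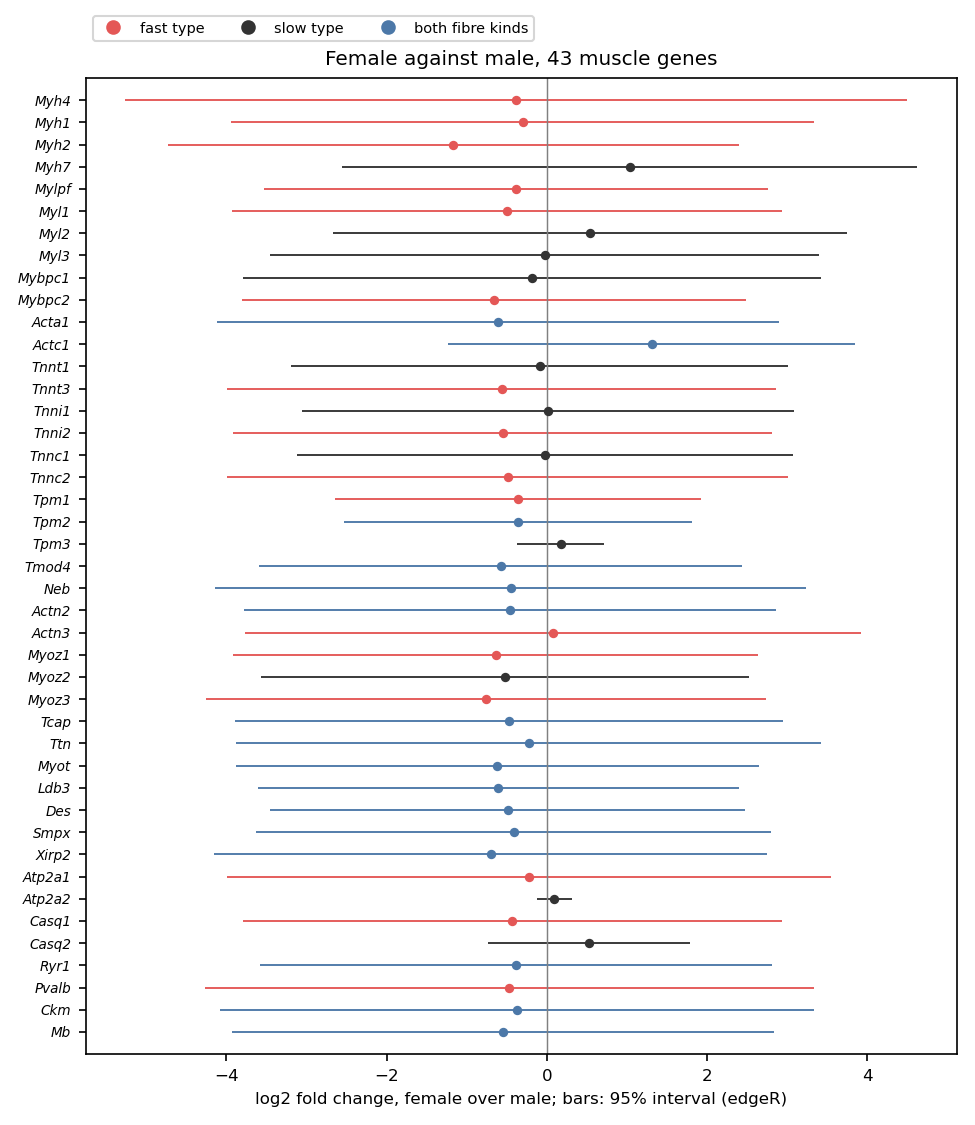
Log2 fold change of females over males (x axis) for each muscle gene (y axis), with the 95% interval of edgeR's test; colours mark fast, slow and shared genes. Every interval includes 0, and those of Atp2a2 and Tpm3 are the narrowest.

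A further list of sarcomere and triad genes behaved alike. Of 48 listed genes 45 were in the files, and 42 of them were lowest in female replicate 3. None was called by edgeR or DESeq2, 4 lay above 0 and 41 below, and the median was -0.47. The leading genes were Fhl1, Eno3, Cmya5 and Nrap, and the summed level ran from 334 CPM in female replicate 3 to 15104 CPM in male replicate 2. The list of progenitor and regenerating fibre genes, led by Chrna1 (a subunit of the acetylcholine receptor), Myf6, Myh3 and Ncam1, summed to 10.1 to 234 CPM with the same 2 extremes.

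Actc1 was examined further after its values had been seen, because it stood higher against Acta1 in females. In the comparison by sex alone it was not called, with a log2 fold change of 1.31 ± 1.09 (SE) and an adjusted p of 0.963 in edgeR. When the median log2 level of the 43 genes was added to the edgeR model as a covariate, Actc1 was the 1 member called, at 1.46 ± 0.18 and an adjusted p of 0.0301, where 0.128% of all genes were called. The covariate is built from these genes, Actc1 among them. In all, 14 such fits were run, with 3 choices of muscle gene or genes and with libraries left out, and Actc1 was called in 7. When 1 of the 8 libraries was left out at a time it was not called in 6 of 8 fits, with adjusted p from 0.0180 to 0.256. The log2 fold change lay between 1.31 and 1.61 in all 14. The call therefore did not hold when most single libraries were left out, and it was made after the pattern was noticed in the same libraries.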

How the data were processed

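Per the labels' protocols, about 500 ng of total RNA per paw sample entered a stranded poly(A) kit, and 50 bp single-end reads were sequenced. Per the submitters' processing notes, bcl2fastq, TopHat2, HTSeq and build mm9 were used. Their versions, the annotation and the strand option of HTSeq: not given in the sources used here. Each library has 1 file, in which the authors deposited raw counts per gene symbol. Lines that name no gene stayed out (reads in no feature were 18.0 to 21.1%). Counts held 16753528 to 24993744 per library, and intervals on shares cover counting error only. No pair of libraries of a sex looked like a repeat (chi-square per degree of freedom at least 13.2).

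Sexes were compared (female over male) in edgeR 4.0.16 (filterByExpr, TMM, robust quasi-likelihood fit, sex as the sole term) in R 4.3.3, adjusted by Benjamini-Hochberg over 14790 genes. The SE was taken from the fold change and the F statistic. Isoform ratios were tested by exact permutation (scipy 1.17.1). Alternatives were other scalings, DESeq2 1.42.0, limma 3.58.1, no filter, a non-robust fit, a replicate block, other added counts and each library left out. The scripts were tested on simulated data. Members, lists and pairs were chosen with earlier results of these data known, and fast or slow types were assigned from general knowledge after counts had been seen. The fits with muscle level as a covariate, the ratios to single muscle genes and the fit without both extreme libraries were added after seeing the data. All 43 genes are named, and a list set which 20 have values in every library. Exon lengths and promoters come from GRCm38, not mm9.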

Additional observations from a re-analysis of the deposited data

Results flagged for a closer look

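In groups of 4 libraries, 126 sets of values were screened for a library far from the others of its sex, a rule that chance meets in about 1 in 20, and 2 were marked. Myh7 stood at 1.70 as log2(CPM + 1) in male replicate 4, while the other males lay between 5.43 and 6.19. The log2 ratio Tnnc2/Tnnc1 was 1.95 in female replicate 3, where the other females lay between 2.66 and 2.69. That library held 11 counts of Tnnc1 and 44 of Tnnc2.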

How the results depend on the processing

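The edgeR test called 14 genes in all. DESeq2 called 111, the fit with the replicate number as a block 7, the fit without both extreme libraries (female replicate 3 and male replicate 2) 9, and fits without 1 library 8 to 16. Calls among the 43 genes stayed at 0 except for 1 with muscle level as a covariate. Same-numbered libraries of the sexes did not deviate together (correlations -0.39, -0.27, -0.08 and -0.24). This cannot exclude that the numbers pair them, since wide differences in muscle level could hide a shared factor. Under the replicate block the median of the 43 genes was -0.85.

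Without both extremes, log2 fold changes were 2.18 (Myh4), 1.40 (Myh1), 0.58 (Myh2), 1.10 (Acta1), 1.11 (Tnnt1), 1.11 (Tnnt3) and 1.47 (Atp2a1), and log2 ratios differed by 0.21 (Myl1/Myl3), 0.013 (Tnnc2/Tnnc1), 1.39 (Atp2a1/Atp2a2), 0.22 (Casq1/Casq2), 0.31 (Actn3/Actn2) and 0.56 (Tpm1/Tpm3). Myh4 was at 0.77 with limma-voom and library weights, 0.13 with the block and 0.72 with the covariate. Myh7 was at -0.96 with limma-voom and -0.59 with weights, and Myoz1/Myoz2 at -0.12 with a count of 2 added. The cause was not tested.

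Over single libraries left out, fold changes ran from -1.75 to 0.69 (Acta1), -1.71 to 1.05 (Atp2a1), -1.59 to 0.99 (Myh1), -2.14 to 0.16 (Myh2), -3.08 to 1.77 (Myh4), -0.77 to 1.45 (Myh7), -1.42 to 0.70 (Tnnt1), -1.81 to 0.69 (Tnnt3) and -0.11 to 0.33 (Tpm3). Ratio differences ran from -0.52 to 0.27 (Actn3/Actn2), -3.03 to 0.56 (Atp2a1/Atp2a2), -2.32 to -0.34 (Casq1/Casq2), -0.97 to 0.16 (Mybpc2/Mybpc1), -0.44 to 1.58 (Myh4/Myh7), -0.41 to 0.13 (Myl1/Myl3), -0.34 to 0.49 (Mylpf/Myl2), -0.25 to 0.17 (Myoz1/Myoz2) and -1.10 to 0.054 (Tpm1/Tpm3). No ratio passed in any of these. Actc1 with muscle level as a covariate ran from 1.31 to 1.58 and was 1.38 without both extremes, where its adjusted p in edgeR was 0.143. Female replicate 3, with 20056 counts over the 43 genes, limits every ratio read there.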

Other observations

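After their values had been seen, Actc1 and the developmental myosins Myh3 and Myh8 were set against single muscle genes within each library. Per 1000 Acta1 counts, Actc1 had 3.91, 1.99, 4.53 and 6.23 counts in males and 9.66, 11.9, 66.7 and 11.2 in females, where the value of 66.7 rests on 6 counts. Myh3 had 8.25, 3.24, 7.01 and 5.57 in males and 18.1, 17.1, 44.4 and 21.4 in females. The denominators tried were 4 (Acta1, Ckm, Atp2a1 and Tnnt3), each with all libraries and without female replicate 3, which gives 8 settings. The sexes did not overlap in 6 of the 8 for Actc1 and in 8 of the 8 for Myh3. The 8 settings reuse the same libraries and the same counts of both genes, so they are not independent. Each setting held 53 ratios only, and the share over all genes was not computed. How often genes outside these 53 separate in this way is therefore not known. With female replicate 3 left out, separation by chance is also easier. These genes were picked, and others separated too: per setting, 1 to 7 of 42 ratios of the muscle genes did, and 2 to 4 of 11 ratios of the progenitor and regenerating fibre genes. Which muscle genes separated changed with the denominator, with Smpx, Ttn and Mybpc1 higher in females against Acta1 in at least 1 setting, and Pvalb and Myoz3 higher in males against Atp2a1. With Atp2a1 as denominator the sexes overlapped for Actc1: it had 4.24, 1.77, 3.31 and 6.5 counts per 1000 in males and 5.91, 10.3, 98.4 and 9.51 in females. Over the 53 ratios of a setting, the smallest adjusted p in any setting was 0.252 (exact permutation test), so none passed. This test can give no p below 0.0286, so over 53 ratios none could pass unless most reached that p. The lack of a pass therefore says little about a single gene. With muscle level as a covariate, Myh3 and Myh8 had log2 fold changes of 1.51 ± 0.33 and 1.15 ± 0.27 (SE) and adjusted p of 0.200 and 0.232 in edgeR, and were not called. Of the 11 tested genes of their list, 7 lay above 0 and 4 below, and none was called by edgeR. Of these 11, 6 had an unadjusted p under 0.05 in edgeR, against 1397 of all 14790 genes in the same fit. Myh3 and Myh8 are among the 6 and were picked after their values had been seen. The genes also share the same libraries, so this count is not a test of the list. The 4 genes of the list below 0 were Myod1 (-0.32), Myf5 (-0.24), Myf6 (-0.25) and Chrna1 (-0.02).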
